A study of Mus musculus with 12 samples.

Results

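Anti-glomerular basement membrane (anti-GBM) nephritis was compared with normal kidney in wild-type mice. The comparison takes the 2 libraries labelled as wild-type (WT) anti-GBM glomerulonephritis and the 2 labelled as WT normal, by their source labels, 4 of the 12 libraries of the series. The other 8 come from WT kidneys with unilateral ureteral obstruction (UUO, day 5) and from Smad3 knockout (KO) kidneys in the same 3 states. The series is about transcripts that depend on Smad3, the transcription factor through which TGF-β acts on genes, in kidneys that inflame and scar. All 4 libraries come from kidney of C57BL/6J mice that carry Smad3. The nephritic mice were primed with Freund's complete adjuvant carrying sheep IgG and received, 5 days later, sheep globulin against mouse GBM at 60 μg/g of body weight. Their kidneys were taken at day 10 per the series' design, although the protocol's wording on when the globulin was given is not uniform. The normal mice were matched for age and weight and no priming or adjuvant is described for them, so nephritis and the immunisation cannot be told apart in these data. Titles carry a code per animal, sex and age are not given per animal, and nothing further says how the kidneys were collected, so p-values measure the spread between these libraries.

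Anti-GBM nephritis is a model of immune injury to the glomerulus, the filter of the kidney. Sheep antibody binds the basement membrane of the glomerular capillaries, and an immune response to the bound sheep IgG brings complement, neutrophils and macrophages to it, with crescents, proteinuria and later fibrosis. Most RNA of a whole kidney comes from tubular epithelium, and glomeruli, vessels and the renin-producing juxtaglomerular cells contribute a small share. Fewer cells of a type and less RNA per cell cannot be told apart in such bulk samples.

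What was measured is putative noncoding RNA longer than a size limit on a gel, after depletion of ribosomal RNA. The tables list 42452 transcripts, 10852 with a match in a sequence database (ncRNA_aligned) and 31600 predicted without one (ncRNA_predict). Reads on them came to 6171868 and 6263666 in the normal libraries and to 7080735 and 6867924 in the nephritic ones. Values are CPM, counts scaled to a common library size by edgeR's TMM method. Levels of different transcripts are not compared, since CPM is not divided by length. A match to an element of an mRNA is not a measure of that whole mRNA, and reads of overlapping or antisense transcripts cannot be told apart because no strand setting is recorded. Protein-coding genes, Smad3 and the usual cell markers among them, were not analysed here.

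The microRNA precursors matched in the tables include mir-135a-1, the lower transcript among them with the firmest test, and mir-707, which was lower as well. The precursor of mir-200b, an epithelial microRNA, is shown as a transcript that did not pass the test. Mature sequences are given here 5′ to 3′ from RefSeq (GRCm38.p6) with the seed, bases 2 to 8, in capitals. The libraries hold long RNA, so the values below are for transcripts around the precursors and not for the mature microRNAs.
mmu-miR-135a-5p: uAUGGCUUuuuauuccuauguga
mmu-miR-135a-1-3p: uAUAGGGAuuggagccguggcg
mmu-miR-707: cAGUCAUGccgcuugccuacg
mmu-miR-200b-3p: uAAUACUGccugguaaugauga
No seed is shared among these 4. The arms of miR-135a-1 lie on the plus strand at chr9:106154140-106154162 and chr9:106154179-106154200, miR-707 at chr7:44849705-44849725 on the plus strand and miR-200b-3p at chr4:156055685-156055706 on the minus strand. Of 8 microRNA genes looked up by symbol, 7 had an entry in the RefSeq table.

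In the fit of all 12 libraries, 5 transcripts passed edgeR's quasi-likelihood test with Benjamini-Hochberg adjustment, 0.0201% of the 24816 tested, and they are described first. Of these 2 were higher (0.00806%) and 3 lower (0.0121%) in nephritis. ncRNA_aligned_943, which overlaps a conserved structure predicted by EvoFold and is 2643 bases long, had 8.98 and 11.5 CPM in the normal kidneys and 157 and 80.4 CPM in the nephritic ones. Its mean went from 10.2 ± 1.78 to 118.9 ± 54.5 CPM (SD, n = 2 each), a log2 fold change of 3.54 ± 0.54 (SE) with an edgeR adjusted p of 0.0276. Reads covered 60.5% and 72.4% of its length in the normal libraries and 95.3% in each nephritic one.

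ncRNA_aligned_1008 matches the mouse cDNA AK008079, described as noncoding, and was nearly silent in normal kidney, with 2 and 3 reads. It had 0.428 and 0.65 CPM there and 127 and 33.2 CPM in nephritis, and its log2 fold change was 7.17 ± 1.07 (edgeR adjusted p = 0.0399). The groups did not overlap. In a fit of the 9 libraries with even coverage, it no longer passed (adjusted p = 0.131).

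The other 3 of the 5 were lower in nephritis. ncRNA_aligned_2560, 486 bases long and matched to the cDNA AK151264, had 44.5 and 24.9 CPM in the normal kidneys and 0.244 and 0.218 CPM in the nephritic ones, which is 2 reads in each. Its log2 fold change was -7.12 ± 1.13 (edgeR adjusted p = 0.0399). It had 0 reads in the other 8 libraries, the KO normal ones included, so among the 12 libraries its reads were found in WT normal kidney and in those 4 nephritic reads. ncRNA_aligned_6640, 1892 bases long and matched to a mouse long noncoding RNA entry, had 88.1 and 84.6 CPM in the normal kidneys and 5.49 and 5.66 CPM in the nephritic ones, with a log2 fold change of -3.95 ± 0.69 (adjusted p = 0.0399). The predicted transcript ncRNA_predict_6171 went from 23.3 and 30.1 CPM to 0.244 and 0.654 CPM, a log2 fold change of -5.82 ± 1.01 (adjusted p = 0.0399). In the 12 fits that each leave out 1 library, these 5 transcripts passed in 6 to 9, and each missed the threshold when some library was left out, with a highest adjusted p between 0.643 and 1.

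In this fit all 6 groups share 1 estimate of the spread. Between replicates, the chi-square of counts per degree of freedom was 10.7 for WT normal, 19.3 for WT nephritis and 19.3 for KO normal, and 94.8, 146.2 and 216.7 for WT obstruction, KO obstruction and KO nephritis; the part of this in the number of calls was not tested. Outside the comparison, 3 libraries covered their transcripts unevenly, with 0.285 to 0.447 of the length expected of randomly placed reads, against 0.757 to 0.879 in the 4 compared here. When the 4 libraries were fitted alone, edgeR's test called 2246 of 15327 transcripts (14.7%), 1061 higher (6.92%) and 1185 lower (7.73%) in nephritis. The fit of the 9 libraries of even coverage called 1616 (6.51%), 704 higher (2.84%) and 912 lower (3.68%), and 1545 transcripts were called in the same direction by both narrower fits. DESeq2 on all 12 libraries called 166 (0.669%). The 5 transcripts above were all called in the 4-library fit and 4 of them in the 9-library fit. From here on, "rose" and "fell" refer to the 4-library fit unless another is named, and, apart from the 5 above, no transcript said to have risen or fallen passed in the 12-library fit.

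**Figure D1:**
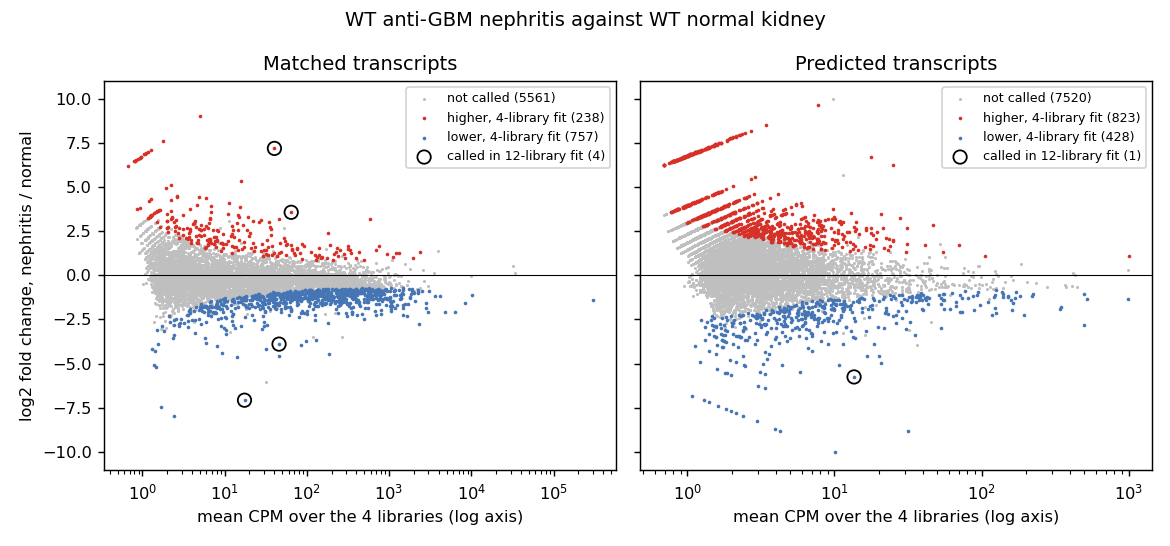
Log2 fold change of nephritis over normal (vertical axis, 4-library fit) against the mean level over the 4 libraries (CPM, log axis), for matched transcripts on the left and predicted ones on the right. Red and blue points were called higher and lower, circles mark the 5 calls of the 12-library fit, and the slanted streaks are transcripts with 0 or few reads in a group. Red points lie mostly at low levels and blue ones spread to high levels.

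The direction of the calls went with the level and class of the transcripts. Among the 4292 transcripts with a mean of 10 CPM or more, 173 rose and 823 fell, while among the 11035 below that level 888 rose and 362 fell. Matched transcripts fell more often, with 238 higher and 757 lower of 6556, a median log2 fold change of -0.26; without normal library 1 or 2 the lower calls were 306 or 351. Predicted transcripts leaned the other way, with 823 higher and 428 lower of 8771 and a median of 0.57, but without nephritic library 2 the calls were 205 higher and 378 lower (median 0.41). The median over all 15327 was 0.09. Within each class the lean went with level. At a mean of 10 CPM or more, 62 predicted transcripts rose and 160 fell, and 111 matched ones rose and 663 fell. Below that level, 761 predicted transcripts rose and 268 fell, and 127 matched ones rose and 94 fell. Of the 1061 higher calls, 164 had 0 reads in both normal libraries, and of the 1185 lower calls 14 had 0 reads in both nephritic ones. A transcript at a low level can pass the filter through 1 group alone. The part of the filter in the lean of low transcripts towards higher values was not tested.

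These shares rest on the scaling. The nephritic libraries spread their reads over more transcripts, 34482 and 35718 against 28649 and 28719 listed in the normal ones. Thinned to 4025554 reads each without the most abundant transcript, they still listed 33111 and 34867 against 28395 and 28718. In the 12-library fit, whose factors also scale the CPM values given here, TMM set 0.76 and 0.739 for normal and 1.16 and 1.35 for nephritis. The 4-library fit set its own factors. With library size alone, the median log2 fold change of all transcripts in the 4-library fit moved to 0.79 and the split to 3770 higher and 388 lower; with TMM on matched transcripts alone, 437 rose and 360 fell, so the lean of matched transcripts towards lower values depends on this choice. In the 12-library fit the median was 0.30 under TMM, 0.49 under DESeq2 size factors and 1.03 under library size alone. The cause of the broader listing was not tested.

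The 24 matched transcripts named next were called in the same direction in the 4-library fit under each of these scalings. Of those with a mean of at least 10 CPM that were called in both narrower fits and whose groups did not overlap, 88 were higher and 508 lower, and the 12 of largest log2 fold change (12-library fit) in each direction are described. Non-overlap alone is common, since 33.6% of the transcripts tested in the 4-library fit were higher without overlap and 30.0% lower. Most of these transcripts match mouse cDNAs that the databases describe as noncoding and that carry no gene name in the tables.

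Besides ncRNA_aligned_943, the higher transcripts started from low levels in normal kidney. ncRNA_aligned_967, matched to a mouse long noncoding RNA entry, had 0.214 and 1.3 CPM in the normal libraries and 38.7 and 23.4 CPM in the nephritic ones (log2 5.36, 4-library adjusted p = 0.000679; 0.17 with 12 libraries). A shorter transcript of the same entry, ncRNA_aligned_2456, had 0 reads in both normal libraries and 38 and 23 reads in the nephritic ones, at least 11.1-fold higher against a floor of 3 counts over the normal group; without the first nephritic library it did not pass (adjusted p = 0.101). ncRNA_aligned_5173, also without reads in normal kidney, had 125 and 42 reads in nephritis and was at least 30.7-fold higher on the same floor. A floor of this kind allows for chance in counting alone, because several reads can come from 1 molecule.

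ncRNA_aligned_10234 (cDNA AK145164) went from 0.214 and 2.38 CPM to 22 and 21 CPM. ncRNA_aligned_858 (AK080028) went from 2.14 and 3.04 CPM to 27.5 and 25.6 CPM, with a 4-library log2 fold change of 3.40 ± 0.43 (adjusted p = 0.000994) against an adjusted p of 0.0701 with 12 libraries. ncRNA_aligned_2375 (AK155531) went from 2.35 and 1.3 CPM to 22 and 17.9 CPM. In these 3 the nephritic libraries lay close to each other, and the rule asked that they lie above both normal ones.

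In other members of the group the nephritic kidneys differed from each other. ncRNA_aligned_2280 (S65140) had 1.5 and 2.38 CPM in normal and 41.7 and 15.3 CPM in nephritic kidney. ncRNA_aligned_5209 (AK002417) had 2.35 and 3.47 CPM against 10.2 and 43.8 CPM, and without the second nephritic library its adjusted p was 0.0546. ncRNA_aligned_3569 (AK045645, 6768 bases) had 10.5 and 7.59 CPM against 106.3 and 57 CPM. ncRNA_aligned_5006, which overlaps an EvoFold structure, had 6.63 and 5.2 CPM against 69.1 and 23.7 CPM. The first nephritic library was the higher one in all of the 12 except ncRNA_aligned_5209 and ncRNA_aligned_3489. The last 3 members, ncRNA_aligned_960, ncRNA_aligned_2108 and ncRNA_aligned_3489, had between 1.71 and 8.02 CPM in normal and between 24 and 74.4 CPM in nephritic kidney.

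**Figure D2:**
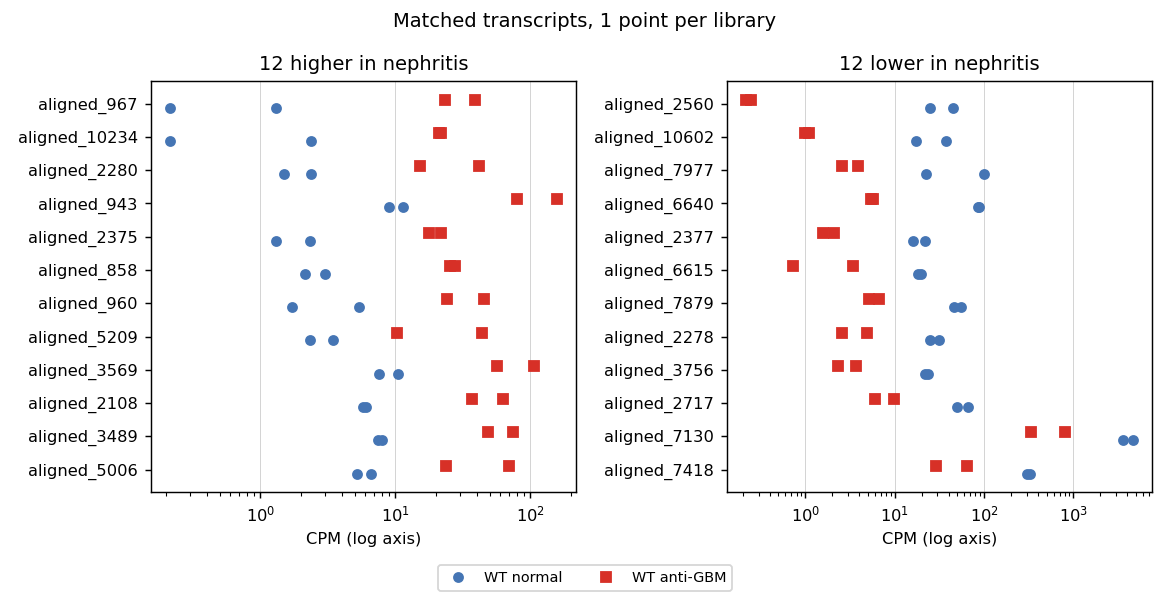
Level in each library (CPM, log axis) of the 12 higher and the 12 lower matched transcripts of largest fold change that met the rule. Circles are the 2 WT normal and squares the 2 WT anti-GBM libraries, and the groups do not overlap in any row because the rule asked for that.

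The lower transcripts, beside ncRNA_aligned_2560 and ncRNA_aligned_6640, include ncRNA_aligned_7130. It overlaps a B2 SINE, a short interspersed repeat transcribed by RNA polymerase III, and had 3566.5 and 4648 CPM in the normal kidneys and 337 and 809 CPM in the nephritic ones. Its log2 fold change was -2.78 ± 0.40 in the 4-library fit (adjusted p = 0.00331) and -2.84 in the 12-library fit (adjusted p = 0.271). B2 repeats have many near-identical copies, so only reads that map uniquely are counted and the assignment is uncertain. Of the 54 transcripts tested that match B1 or B2, 3 rose (5.56%, against 6.92% of all tested) and 5 fell (9.26%, against 7.73%). Their median log2 fold change of -0.12 becomes 0.58 with library size alone and 0.21 with matched transcripts alone. B1 and B2 matches as a group had no direction that held under each scaling.

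ncRNA_aligned_7418 (AK138466) had 329 and 301 CPM in normal and 29 and 64.8 CPM in nephritic kidney, a log2 fold change of -2.68 ± 0.36 (4-library adjusted p = 0.00148; 0.17 with 12 libraries). ncRNA_aligned_7879 (AK085652) had 55.8 and 46 CPM against 5.12 and 6.75 CPM. ncRNA_aligned_2717, which matches a human long noncoding RNA entry, had 49.6 and 66.8 CPM against 5.98 and 9.7 CPM, though reads covered only 6.86% to 8.73% of its 8452 bases. The separation of the groups in these 3 was set by the rule, which asked for no overlap.

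ncRNA_aligned_10602 (AK044932) is only 271 bases long and went from 17.3 and 37.7 CPM to 1.1 and 0.98 CPM. ncRNA_aligned_7977 (AK039394) had 22.2 and 99.5 CPM in the normal kidneys, a wide spread, against 2.56 and 3.92 CPM. Without the first nephritic library it no longer passed in the 4-library fit (adjusted p = 0.062). The 4 others, ncRNA_aligned_2377, ncRNA_aligned_6615, ncRNA_aligned_2278 and ncRNA_aligned_3756, lay between 16 and 31.7 CPM in normal and between 0.732 and 4.9 CPM in nephritic kidney.

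Of the transcripts that match elements with a known part in the kidney, those of renin and mir-135a-1 and several of selenoproteins fell in the 4-library fit. The list holds the renin stability element, mir-135a-1, mir-200b and the selenocysteine insertion (SECIS) elements, 20 transcripts in all. None of its 15 tested members passed in the 12-library fit. Of all matched transcripts tested in the 4-library fit 11.55% fell, and of the matched ones with a mean of 10 CPM or more 18.8% fell. In the 4-library fit 8 fell and 0 rose, where 7.73% of all tested fell, and the median log2 fold change was -1.28 against 0.09 over all transcripts; with library size alone 5 fell and 2 rose, with matched transcripts alone 5 fell, and without normal library 1 5 fell.

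Renin is the enzyme that starts the angiotensin cascade and is made by juxtaglomerular cells beside the glomerulus. ncRNA_aligned_2307, 1411 bases long, matches the regulatory element that stabilises its mRNA. It had 220 and 144 CPM in the normal kidneys and 5.12 and 20.6 CPM in the nephritic ones, means of 182.4 ± 53.8 and 12.9 ± 10.9 CPM (SD, n = 2 each). Both nephritic libraries lay far below the lower normal one. The log2 fold change was -3.75 ± 0.65 in the 4-library fit (edgeR adjusted p = 0.0141), and the adjusted p was 0.133 with 12 and 0.22 with 9 libraries and 0.0679 when only matched transcripts were fitted. In the obstructed WT kidneys it had 83.6 and 126 CPM. The KO kidneys had 131 and 522 CPM in the normal and 562 and 1237.5 CPM in the nephritic state, and the difference between the WT and KO responses was -5.29 ± 1.01 on the log2 scale without passing (adjusted p = 0.16).

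ncRNA_aligned_6360, 4267 bases long, holds the match to the precursor of mir-135a-1, whose arms are printed above. It had 578 and 599 CPM in the normal and 113 and 134 CPM in the nephritic kidneys. Replicates were within 15 CPM (SD) of their mean in each group, and the log2 fold change was -2.25 ± 0.44 with 12 libraries (adjusted p = 0.0645) and -2.20 ± 0.25 with 4 (adjusted p = 0.000628). In the obstructed WT kidneys the transcript had 98.2 and 51.5 CPM. Obstruction against WT normal gave a log2 fold change of -2.98 (12-library edgeR adjusted p = 0.000765), where 600 of the 24816 tested passed. The direct comparison of nephritis with obstruction did not pass (edgeR adjusted p = 0.947). In KO mice it had 234 and 259 CPM in the normal and 751 and 438 CPM in the nephritic kidneys, a log2 difference of 1.27 that did not pass by itself (12-library adjusted p = 0.523).

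The transcript of mir-135a-1 was 1 of 4, 0.0161% of those tested, whose WT and KO responses to nephritis differed in the 12-library fit. The difference of the log2 responses was -3.52 ± 0.61 (edgeR adjusted p = 0.0403). WT and KO responses share no control library. KO nephritis library 1 is one of the unevenly covered ones, with a coverage ratio of 0.338, and without it the difference was -3.08 with an adjusted p of 0.122. In the fit of the 9 evenly covered libraries, which leaves it and 2 others out, the difference was -3.07 (adjusted p = 3.71e-05), where 4.31% of those tested passed. It passed in 5 of the 12 fits that each leave out a library, with adjusted p from 0.0109 to 0.327, and did not pass with library size alone (0.0515) or with matched transcripts alone (0.265).

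ncRNA_aligned_6640, one of the 5 transcripts at the top, also differed between genotypes. It had 0 reads in both KO normal kidneys, and 20.9 and 9.26 CPM in the KO nephritic ones, while WT kidneys went from 88.1 and 84.6 to 5.49 and 5.66 CPM. WT obstructed kidneys had 0.894 and 0.588 CPM, a log2 fold change over WT normal of -6.86 (12-library edgeR adjusted p = 7.4e-05). The fitted difference of the WT and KO responses to nephritis, -13.58 (edgeR adjusted p = 4.37e-05), depends on the prior count, because a group is at 0, and is not a bound. It passed in all 12 fits that leave out a library. ncRNA_aligned_5045 (AK039219) had 151 and 286 CPM in WT normal, 24.5 and 48.1 in WT nephritic, 31.5 and 93.3 in KO normal and 172 and 478 CPM in KO nephritic kidney. The last of the 4, ncRNA_predict_8223, was at 0 reads in KO normal kidney and overlapped between the WT groups. ncRNA_aligned_5045 and ncRNA_predict_8223 each passed in 6 of the 12 fits that leave out a library, with a highest adjusted p of 0.327 and 0.337.

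**Figure D3:**
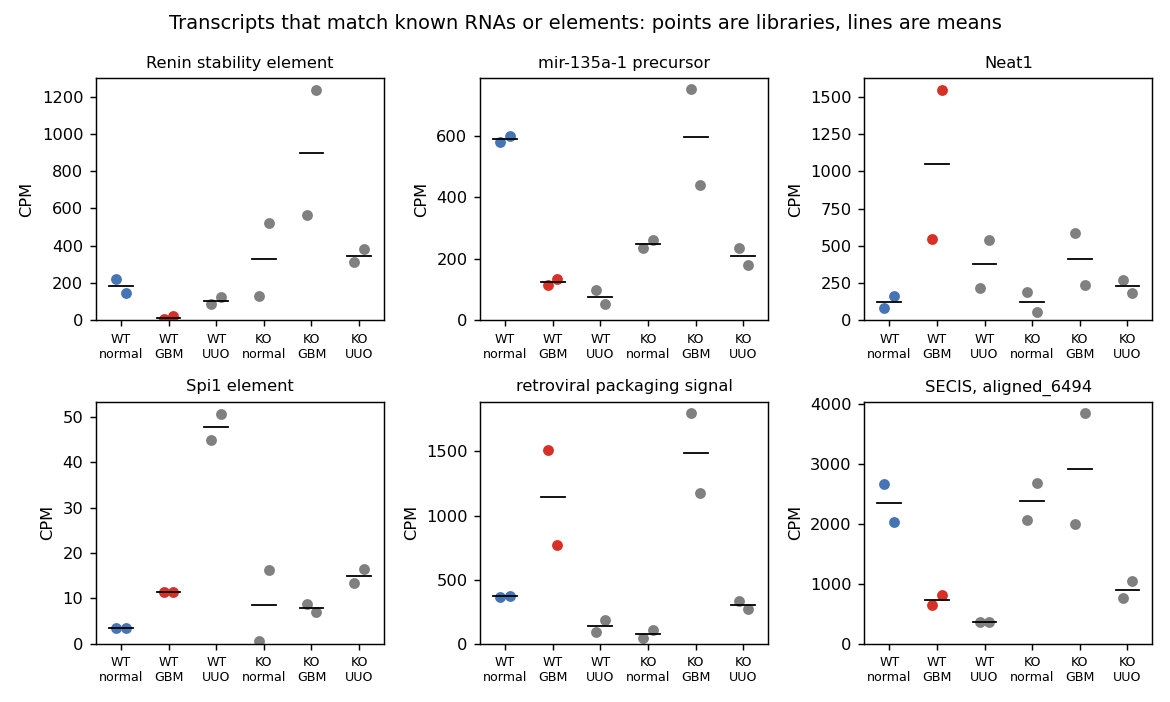
Level (CPM, linear axis from 0) of 6 transcripts that match known RNAs or elements, in the 6 groups of the series. Points are libraries, horizontal lines are means of 2, and blue and red mark the 4 libraries compared here. The renin element and mir-135a-1 are low in WT nephritis and high in KO nephritis, and mir-135a-1 is low in WT obstruction too. Neat1 and the retroviral signal are above WT normal in both nephritic WT libraries.

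SECIS elements are stem-loops in selenoprotein mRNAs that let a stop codon be read as selenocysteine, and the kidney is a main source of selenoproteins such as the plasma glutathione peroxidase. The tables hold 17 transcripts that match one and 12 were tested. No SECIS match passed in the 12-library fit, where the median log2 fold change of the 12 was -1.22. In the 4-library fit 6 fell and 0 rose (median -1.17), and 10 of the 12 were lower in both nephritic libraries than in either normal one. That held for 30.0% of all tested and 43.1% of the matched transcripts tested. With library size alone 3 fell and 1 rose, with a median of -0.46, with matched transcripts alone 4 fell, and without normal library 1 or 2 the number was 3 or 4. Beside this, of the 3832 transcripts with a mean from 12.8 CPM upward, where most SECIS matches lie, 775 fell and 144 rose. The part of level in the SECIS count was not tested. The 1 match that was higher without overlap, ncRNA_aligned_2317, had 3.42 and 2.17 CPM against 12.7 and 4.14 CPM and did not pass (4-library edgeR adjusted p = 0.0851). It had 112 and 219 CPM in WT obstruction. Nephritis differed from obstruction with 12 libraries (log2 -4.30, edgeR adjusted p = 0.0206) but not with those 4 alone (0.0808).

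ncRNA_aligned_6494 had 2664.5 and 2042 CPM in the normal and 653 and 817 CPM in the nephritic kidneys, a log2 fold change of -1.63 ± 0.25 (4-library adjusted p = 0.00242; 0.146 with 12 libraries). ncRNA_aligned_802 had 157 and 118 CPM against 31.1 and 19.9 CPM (4-library adjusted p = 0.00108; 0.56 with 12 libraries and 0.366 with 9). ncRNA_aligned_7693 had 1304 and 1254 CPM against 528 and 491 CPM. ncRNA_aligned_5109 had 2712 and 2361 CPM against 1092 and 1269 CPM. The call of ncRNA_aligned_5109 was lost without either normal library (adjusted p = 0.139 and 0.0506). The last 2 that fell, ncRNA_aligned_922 and ncRNA_aligned_3688, match the same entry and so are not independent; the former was lost without the first normal library (adjusted p = 0.0786) and the latter without either normal library or the first nephritic one.

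**Figure D4:**
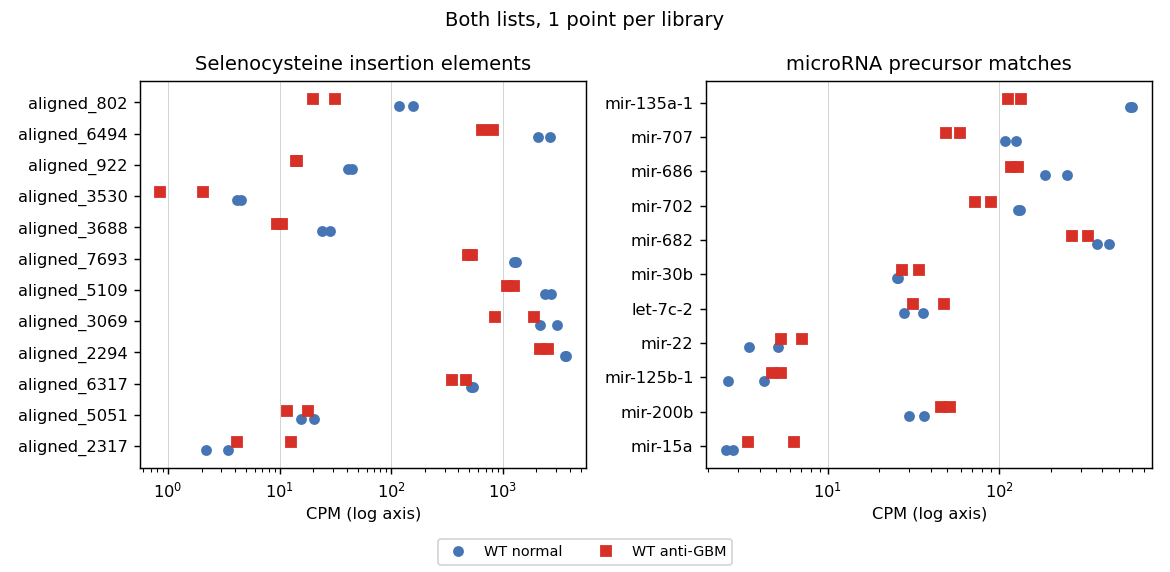
Level in each library (CPM, log axis) of the 12 tested transcripts that match a SECIS element (left) and of 11 of the microRNA precursor matches (right). Circles are WT normal and squares WT anti-GBM libraries. Of the SECIS matches 10 lie lower in both nephritic libraries, and of the precursors shown mir-135a-1 is the most separated.

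MicroRNA precursors were matched by 79 transcripts, of which 52 were tested in the 4-library fit. Of all matched transcripts tested there 11.55% fell, and of the matched ones with a mean of 10 CPM or more 18.8% fell. None rose and 9 fell (17.3%, against 7.73% of all tested), with a median log2 fold change of -0.28, close to the -0.26 of all matched transcripts; with library size alone 9 rose and 1 fell, with matched transcripts alone 2 rose and 2 fell, and without either normal library 3 fell. The match to mir-707 had 125 and 108 CPM in the normal and 59.4 and 49.3 CPM in the nephritic kidneys, a log2 fold change of -1.06 ± 0.26 (adjusted p = 0.0207), which did not pass with library size alone (-0.36, adjusted p = 0.278), with matched transcripts alone (0.053) or without either normal library (0.216 and 0.101). The match to mir-200b, a microRNA that keeps epithelial cells from a mesenchymal state, had 29.9 and 36.4 CPM against 45.8 and 52.1 CPM and did not pass (log2 0.61 ± 0.30, adjusted p = 0.178). The match to let-7c-2 overlapped between the groups, and that to mir-30b, with 25.7 and 25.4 CPM against 27.1 and 34.2 CPM, did not pass. Of 19 microRNA markers of tubular, endothelial, myeloid, mesenchymal and red cells that were looked for, 2 were found, mir-200b and the transcript that hosts mir-155.

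Elements tied to inflammation and fibrosis were few, and that of Spi1 was the 1 that rose. Of 7 transcripts on that list, 5 were tested in the 4-library fit, 1 rose and 0 fell, with a median log2 fold change of 1.39, where 6.92% of all tested rose. With library size alone, with matched transcripts alone or without nephritic library 2, 3 rose. The one that rose, ncRNA_aligned_3717, matches a regulatory element of the mRNA of Spi1 (PU.1), the master transcription factor of macrophages and other myeloid cells. It had 3.42 and 3.47 CPM in the normal and 11.5 and 11.4 CPM in the nephritic kidneys, 16 reads in each normal library and 94 and 105 reads in the nephritic ones. The log2 fold change was 1.78 ± 0.45 with 4 libraries (adjusted p = 0.0219) and 1.73 ± 0.85 with 12 (adjusted p = 0.768), and it did not pass when either normal library was left out (adjusted p = 0.14 and 0.124). In obstructed WT kidney it stood at 44.8 and 50.7 CPM; nephritis and obstruction were compared directly and the difference did not pass (adjusted p = 0.732).

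The internal ribosome entry element of c-myc, a growth-promoting transcription factor, gave 16.5 and 12.4 CPM in the normal kidneys and 161 and 22.7 CPM in the nephritic ones. Only the first nephritic library stood far above normal, and the difference did not pass in edgeR (4-library log2 2.69 ± 0.88, adjusted p = 0.0945). The matches to vimentin, an intermediate filament of mesenchymal cells, and to the CAESAR element of Ctgf, a matrix-inducing growth factor, overlapped between the groups. For vimentin the values were 198 and 140 CPM against 268 and 196 CPM, and for Ctgf 131 and 180 CPM against 306 and 176 CPM. The long noncoding RNA that hosts mir-155, a microRNA of activated immune cells, had 0.855 and 0.434 CPM against 1.34 and 1.96 CPM and did not pass. The elements of G-CSF, a growth factor of neutrophils, had 0 reads in all 4 libraries, which does not show that its mRNA is absent.

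Among architectural and imprinted long noncoding RNAs, 15 were tested in the 4-library fit, 2 rose and 0 fell, where 6.92% of all tested rose; with library size alone 6 rose. Neat1 builds the paraspeckle, a nuclear body that holds back RNAs and proteins. Its long form was matched by ncRNA_aligned_3989, with 81.5 and 160 CPM in the normal and 543 and 1551 CPM in the nephritic kidneys. The log2 fold change was 3.18 ± 0.60 in the 4-library fit (adjusted p = 0.0197) and 3.11 ± 0.78 in the 12-library fit (adjusted p = 0.299); with only matched transcripts the adjusted p was 0.0574. WT obstructed kidneys had 215 and 536 CPM, and the direct comparison of nephritis with obstruction did not pass (adjusted p = 0.898).

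Airn, the imprinted antisense RNA that silences Igf2r in cis, was matched by 24 short transcripts at low levels, which share 1 entry. Of the 11 tested in the 4-library fit 1 rose, with an adjusted p of 0.0488 that did not hold when any of the 4 libraries was left out. All 11 had a log2 fold change above 0, with a median of 1.09. Transcripts this low can pass the filter through the nephritic group alone, so the shared sign is no support for a rise. Of the 3832 transcripts with the lowest levels, up to 1.94 CPM, which had a median of 1.09 as well, 386 rose and 57 fell. Zfas1, a host RNA of small nucleolar RNAs, had 12.2 and 11.3 CPM in the normal and 39.2 and 15.5 CPM in the nephritic kidneys and did not pass (adjusted p = 0.0698). Xist, the RNA that coats the inactive X chromosome, had 0.855 and 21.7 CPM in the normal and 3.29 and 1.53 CPM in the nephritic kidneys, so 1 normal library stood apart from the other 3.

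A transcript that carries a gammaretroviral packaging signal rose. Such signals mark endogenous retroviruses whose RNA can be packaged into particles. ncRNA_aligned_8234 had 366 and 372 CPM in the normal kidneys and 1513 and 773 CPM in the nephritic ones, a log2 fold change of 1.66 ± 0.29 (4-library adjusted p = 0.00413; 0.301 with 12 libraries). The obstructed WT kidneys had 91.9 and 188 CPM, and this was 1 of 24 transcripts (0.0967%) that differed between nephritis and obstruction in the 12-library fit, with a log2 difference of 3.03 (adjusted p = 0.0109). That difference did not pass without the unevenly covered first obstruction library (2.61, adjusted p = 0.233), without the first nephritic library (2.52, adjusted p = 0.105) or in a fit of those 4 libraries alone (3.02, adjusted p = 0.0911). In KO mice the level was 48.1 and 109 CPM in normal and 1798 and 1175 CPM in nephritic kidney. That log2 difference of 4.24 passed with 12 libraries (edgeR adjusted p = 0.000638), where 13 of the 24816 tested passed. The WT response minus the KO response was -2.61 and did not pass (12-library edgeR adjusted p = 0.271). Endogenous retroviruses have near-identical copies and the read assignment is uncertain. The other packaging signal, ncRNA_aligned_8305, overlapped between the groups.

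Few of the small structural RNAs behind splicing, ribosome and tRNA biology were called. The transcripts listed can extend beyond the small RNA they match. Of 17 housekeeping RNAs tested 1 rose and 1 fell (5.88% each, against 6.92% higher and 7.73% lower of all tested). Their median log2 fold change was 0.52, with 5 of the 17 below 0. With library size alone 8 rose and 0 fell, the median was 1.20 and 2 were below 0. The class of spliceosomal, transfer or cytoplasmic small RNA matches, 32 tested, had a median of -0.004, or 0.70 with library size alone. The spliceosomal RNA match ncRNA_aligned_8251 rose, from 774 and 715 CPM to 1404 and 1533 CPM (log2 1.03 ± 0.22, adjusted p = 0.012; 0.113 and 0.144 without either normal library), and RNase MRP, which processes ribosomal RNA, overlapped between the groups.

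Of 93 small nucleolar or Cajal body RNA matches, 9 fell (9.68%, against 7.73% of all tested) and 0 rose, with a median log2 fold change of -0.19 that becomes 0.52 with library size alone, where 14 rose and 2 fell. Without normal library 1, 3 fell and 4 rose, and without normal library 2, 3 fell and 2 rose, so no direction held for these matches. The largest fall among them was SNORD83B, a guide of RNA methylation, with 122 and 198 CPM against 8.3 and 11.9 CPM (log2 -3.93, 4-library adjusted p = 0.000221; 0.861 with 12 and 0.387 with 9 libraries). Snord91a had 10 and 10.4 CPM against 1.71 and 1.42 CPM, and SNORA15, a guide of pseudouridylation, had 1015 and 883 CPM against 463 and 385 CPM. Over all matched transcripts tested 11.55% fell, and 18.8% of those with a mean of 10 CPM or more. Of 27 small non-messenger RNA matches 7 fell and 0 rose, against 7.73% lower over all tested, whereas 0 fell and 4 rose with library size alone, 1 fell and 1 rose with matched transcripts alone, and 1 fell without either normal library.

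**Figure D5:**
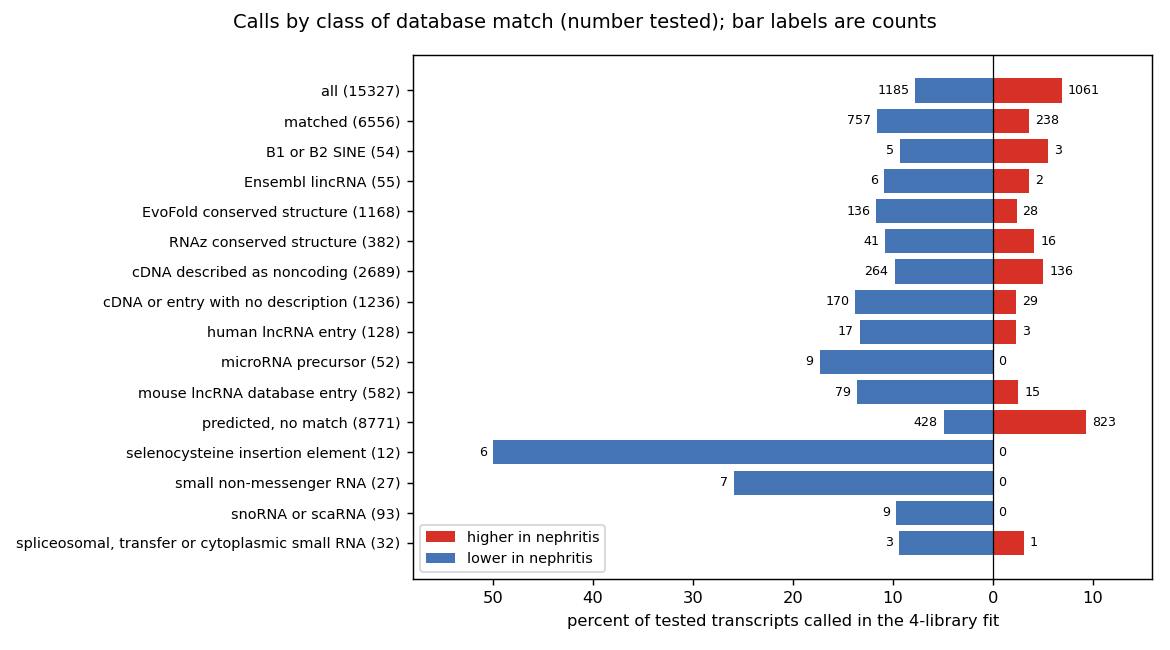
Percent of the transcripts tested in the 4-library fit that were called higher (red, to the right) or lower (blue, to the left) in nephritis, by class of database match, with the number tested in brackets and the counts beside the bars. All levels are pooled in a bar. Of the predicted transcripts with a mean of 10 CPM or more, 62 were called higher and 160 lower. Predicted transcripts lean to higher, with 823 against 428, and SECIS matches to lower, with 6 of 12; the former lean turns to 205 against 378 without nephritic library 2, and with library size alone 3 SECIS matches were called lower and 1 higher.

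Of the 55 Ensembl lincRNAs tested 2 rose (3.64%, against 6.92% of all tested) and 6 fell (10.9%, against 7.73%). With library size alone 7 rose and 3 fell, and no rise held when either normal library was left out. The 2 described next were chosen after their values were seen. The match to 2610035D17Rik (mm9 chr11:112905209-113034391, minus strand) had 21.4 and 14.7 CPM in the normal and 0.732 and 0.871 CPM in the nephritic kidneys, a log2 fold change of -4.41 (adjusted p = 0.000761). In the opposite direction, 2410006H16Rik (mm9 chr11:62416379-62418309, plus strand) had 17.7 and 16.7 CPM against 47.7 and 52.6 CPM (log2 1.59, adjusted p = 0.00831). Replicates of both lay close to each other and the groups did not overlap.

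Of the 8 transcripts with the most reads, 4 fell, 0 rose and 4 did not pass. Beside this, 775 fell and 144 rose of the 3832 transcripts with a mean from 12.8 CPM upward. ncRNA_aligned_3554, 16248 bases long and matched to a mouse long noncoding RNA entry, took 30.3% and 35.7% of all reads in the normal kidneys and 18.0% and 23.4% in the nephritic ones. It fell by 1.37 on the log2 scale in the 4-library fit (adjusted p = 0.00273), with an adjusted p of 0.926 in the 12-library fit and of 0.0779 when only matched transcripts were fitted. ncRNA_aligned_2951 had 10592 and 10032 CPM against 2142 and 2614 CPM (log2 -2.06 ± 0.23, adjusted p = 0.000612). The call of ncRNA_aligned_6240, another that fell, was lost with library size alone (adjusted p = 0.157), with matched transcripts alone (0.0763) and without normal library 2 (0.145). ncRNA_aligned_4113 (AK133569) was among those that did not pass, with 2217 and 2128 CPM against 8451 and 2805 CPM.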

How the data were processed

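Counts were deposited by the authors as uniquely mapped reads per putative noncoding transcript, per the file headers; the submitters' processing notes name Bowtie 0.12.7 and the build mm9. The deposited tables also hold RPKM, the covered share as a percent and the mean coverage (signal), all made by the authors. Transcripts that a library's table does not list were set to 0. Samples were grouped by source label. The test on counts was that of edgeR 4.0.16 (R 4.3.3), with TMM, filterByExpr (24816 of 42452 kept, 8035 matched and 16781 predicted; 15327 in the 4-library fit), robust quasi-likelihood fit with 1 mean per group, F tests, Benjamini-Hochberg over all kept, called under 0.05. All adjusted p-values are from this test unless DESeq2 1.42.0 or limma 3.58.1 is named. With 2 against 2 a permutation cannot go below p = 0.3333. Coverage evenness used transcripts of more than 500 bases with 20 to 200 reads and read length 90. Scripts were tested on simulated data. Transcripts were named by rule: calls of the 12-library fit; 12 matched transcripts per direction (mean of 10 CPM, called in the 4- and 9-library fits, no overlap); lists of known elements; the 8 with most reads; and those at 0 reads in a group with 20 or more in each library of the other. Small nucleolar, lincRNA and a few other matches, ncRNA_aligned_5045 and ncRNA_predict_8223 were chosen after their values were seen. Members, lists and tests were chosen with earlier results of these data known.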

Additional observations from a re-analysis of the deposited data

Results flagged for a closer look

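Among the transcripts named by rule, 2 stood out because the response to nephritis differed between WT and KO mice by the interaction test of the 12-library fit. For ncRNA_aligned_6640 the WT response minus the KO response was -13.58 on the log2 scale, a fitted value that depends on the prior count because both KO normal libraries had 0 reads. For ncRNA_aligned_6360, which matches mir-135a-1, it was -3.524. No group here has 4 or more libraries, so single libraries were not tested as outliers.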

How the results depend on the processing

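No paired analysis was possible because the labels give animal codes and no replicate numbers shared between groups. The number of WT nephritis calls, 5, became 12 with DESeq2 size factors, 78 with library size alone, 123 without a filter, 0 at a mean of 1 CPM or more (736 higher and 711 lower at an unadjusted p under 0.05), 166 with DESeq2, 2537 with voom quality weights, 2 and 8 with limma on log2 of RPKM plus 0.1 and plus 1, 2246 with the 4 libraries, 1616 with the 9 and 0 with matched transcripts alone (369 and 280 at an unadjusted p under 0.05). For the difference between WT and KO responses, 4 calls became in the same order 13, 32, 78, 1, 126, 153, 0, 0, 31 (only the libraries of the groups compared), 1069 and 1; limma gave 3689 higher and 153 lower at an unadjusted p under 0.05 with RPKM plus 0.1, and 3279 and 179 with RPKM plus 1. For nephritis against obstruction, 24 became 42, 59, 163, 12, 206, 152, 51, 297, 2 and 320. Leaving out 1 library gave 0 to 63 calls for nephritis against normal, 1 to 30 for the genotype difference and 5 to 80 for nephritis against obstruction. The 0 calls came without WT anti-GBM 1 (534 higher and 328 lower at an unadjusted p under 0.05), WT normal 1 (302 and 395) or WT normal 2 (321 and 402), and the 58 and 63 without either KO obstruction library; a lone library was assumed to vary like the others. Alternatives around the 4-library fit were chosen after seeing the data: its 2246 calls became 4158 with library size alone and 797 with matched transcripts alone, were 2255 with DESeq2 size factors and 1716 with DESeq2, and ranged from 1526 to 1710 without 1 library. Among the values of the 219 named transcripts under the alternatives, 273 passed where the 12-library fit did not and 39 failed where it did. The other 4682 stayed on their side of the threshold. A change of sign was counted as a reversal only where the 12-library fit or the alternative passed, and 0 were found. Changes of sign where neither passed are among the 4682. With 2 libraries a group, low transcripts are limited by depth: 3 reads correspond to 0.323 CPM over the normal and 0.173 CPM over the nephritic group.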
